A study of Mus musculus with 8 samples.

Results

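Plexins are cell surface receptors for semaphorins, a family of secreted or membrane-bound guidance proteins. Ephrin B1 is a membrane-anchored ligand of Eph receptor kinases. The account covers 9 genes on expression arrays of germinal centre B cells: the plexin genes Plxnb1, Plxnb2, Plxnc1 and Plxnd1, the semaphorin genes Sema4a, Sema4b, Sema4d and Sema7a, and the ephrin gene Efnb1. They were taken as every probe set whose only gene symbol in the platform annotation is one of these names. This gave 22 of 45037 probe sets, or 9 of 18193 named genes.

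The cells were B220+CD38-CD95+ B cells of C57BL/6 mice given NP-KLH in alum under the skin, and lymph nodes were taken on day 12. The 2 groups are 4 arrays titled dark zone and 4 titled light zone, with no other difference given than the sort on CXCR4 and CD83. The mouse age, and whether nodes of several animals were pooled, are not given in the sources used here. The titles call the arrays biological replicates, but nothing says which came from which animals, so p-values measure the spread between these samples.

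The gate written in the labels gives dark zone cells low CXCR4 and high CD83, the reverse of how the zones are usually sorted. The mRNA went with the titles. Cd83 had an intensity of 1478 ± 111 in dark zone arrays and 7381 ± 195 in light zone arrays, and Cxcr4 had 1571 ± 125 in dark zone arrays and 804 ± 39.3 in light zone arrays (SD, n = 4 each). Every direction here is therefore between arrays titled dark zone and arrays titled light zone.

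Semaphorins and plexins were first described in axon guidance and are also used by lymphocytes for contact and movement. When a semaphorin binds, the plexin's intracellular GTPase-activating domain switches off small GTPases of the Rap and R-Ras type, and B-type plexins also recruit exchange factors for RhoA, so the cell changes its adhesion and shape. Some semaphorins bind other receptors on immune cells as well. Ephrin B1 is known on mouse germinal centre B cells, where it contacts Eph receptors of follicular helper T cells, and plexin B2 is known there as a receptor for a semaphorin on those T cells.

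Most of the measurable members were lower in the dark zone, and 1 was higher. Plxnb2 rose by 0.50 on the log2 scale. Sema7a and its receptor gene Plxnc1 fell by 0.83 and 0.77, and Sema4d, Efnb1 and Sema4b fell by 0.48, 0.47 and 0.40, each by its brightest probe set. Sema4d and Sema4b each had another probe set above the filter that went the other way and was not called. The falls of Sema4d and Sema4b were not called when the probe sets of a gene were averaged. Plxnb1 (0.07) and Plxnd1 (-0.01) did not pass the test, and Sema4a was too dim to be tested as a gene.

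Differences are dark zone minus light zone in log2 of the deposited intensity. A gene was represented by its brightest probe set, tested if the mean of that probe set was at or above an intensity of 27.8 (percentile 50 of all probe sets), and called if the limma p adjusted over 10547 genes was under 0.05. Of the 9 members 8 were tested and 6 were called. Over all genes tested, 43.9% were called, 19.1% higher and 24.8% lower in the dark zone, against 1 and 5 of the 8 tested members. The median difference was -0.43 over the tested members and -0.01 over all tested genes, and the median size of difference was 0.47 and 0.17. The dark zone and light zone arrays did not overlap in 6 of the 8 tested members, the called ones, and in 41.3% of all genes tested. A call and a lack of overlap come from the same values, so they are not separate results. The members were chosen with earlier results of these data known, so these shares and medians describe them and test nothing. In bulk RNA of sorted cells, fewer cells that express a gene and less RNA per cell cannot be told apart.

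**Figure D1:**
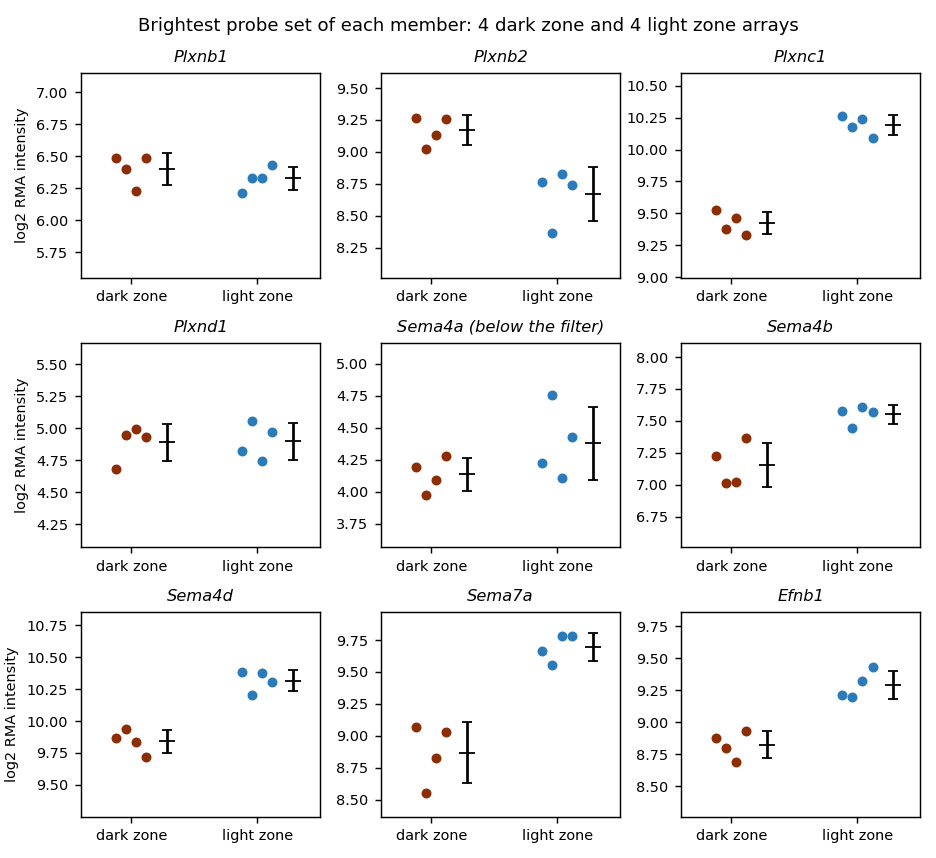
Log2 RMA intensity (vertical axis, a span of 1.6 in each panel) of the brightest probe set of each of the 9 members, with 4 dark zone arrays (brown) left of 4 light zone arrays (blue). Points are arrays, and the black mark is the mean with its SD. Plxnb2 is the 1 panel in which all dark zone arrays lie above all light zone arrays, and Plxnc1, Sema4b, Sema4d, Sema7a and Efnb1 show the reverse.

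Sequences before the transcription start are shown for the member that rose (Plxnb2) and for the receptor and ligand that fell together (Plxnc1 and Sema7a). They are the 250 bases upstream of a RefSeq start in GRCm38.p6, read 5′ to 3′ on the strand of the gene. Plxnb2 is on the minus strand at chr15:89180789-89181038 (the first of 2 listed starts), Plxnc1 on the minus strand at chr10:94944846-94945095, and Sema7a on the plus strand at chr9:57939862-57940111. Capitals mark a match to one of the motifs searched.
Plxnb2: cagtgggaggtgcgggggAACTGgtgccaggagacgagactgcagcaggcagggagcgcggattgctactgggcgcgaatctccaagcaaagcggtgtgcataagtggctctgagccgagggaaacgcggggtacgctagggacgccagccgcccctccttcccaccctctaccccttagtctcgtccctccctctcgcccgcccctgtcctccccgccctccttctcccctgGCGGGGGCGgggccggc
Plxnc1: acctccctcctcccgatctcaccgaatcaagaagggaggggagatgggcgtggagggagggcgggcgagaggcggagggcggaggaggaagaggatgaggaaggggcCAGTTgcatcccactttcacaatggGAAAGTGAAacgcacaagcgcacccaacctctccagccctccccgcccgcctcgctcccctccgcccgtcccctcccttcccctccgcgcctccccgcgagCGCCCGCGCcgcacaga
Sema7a: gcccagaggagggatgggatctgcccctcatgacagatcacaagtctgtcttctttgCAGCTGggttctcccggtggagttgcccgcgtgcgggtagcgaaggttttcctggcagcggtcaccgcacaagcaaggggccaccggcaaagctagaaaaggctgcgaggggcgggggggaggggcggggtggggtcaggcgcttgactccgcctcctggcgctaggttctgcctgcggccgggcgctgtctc

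The motifs were searched on both strands of 32841 such windows, 16 of which belong to the 9 members. They were EGR (GCGNGGGCG, in 4.70% of all windows), AP-1 (TGANTCA, 6.75%), FOXO (TGTTTAC, 3.17%), the E-protein E-box (CAGCTG, 13.0%), the MYC E-box (CACGTG, 6.02%), STAT (TTCNNNGAA, 7.02%), MYB (AACNG, 74.2%) and NF-kB (7.25%). An IRF motif (GAAANNGAA, 7.13%) was added after the Plxnc1 sequence had been seen. The windows shown of Plxnb2 and Plxnc1 each have an EGR match 17 to 9 bases before the start. The window of the other listed Plxnb2 start has no EGR match. Plxnc1 also has the IRF match, 118 to 110 bases before the start, and both plexin windows shown hold a MYB match. Sema7a has 1 match, an E-protein E-box 193 to 188 bases before the start. No match overlaps another in these 3 windows. Over the 16 member windows, EGR, the E-protein E-box and IRF were each found in 2, NF-kB, AP-1 and the MYC E-box each in 1, MYB in 14, and FOXO and STAT in 0. These are matches of letters and show no binding. Which of the listed starts these cells use was not measured.

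Among the plexins, Plxnb2 was the member that rose. It encodes a B-type plexin that binds class 4 semaphorins. Its only probe set had intensities of 617, 521, 562 and 612 in dark zone arrays 1 to 4 and of 434, 329, 454 and 428 in light zone arrays 1 to 4. Every dark zone array was above every light zone array, and light zone array 2 was the lowest of all. The mean was 578 ± 45.4 in dark zone arrays and 411 ± 56.0 in light zone arrays (SD, n = 4 each). The log2 difference was 0.50 (SE 0.10, 95% interval 0.28 to 0.72, limma adjusted p = 0.0016). It was 0.39 without light zone array 2 (limma adjusted p = 0.0017). In size it was exceeded by 13.4% of the tested genes.

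Plxnc1 encodes the plexin that binds semaphorin 7A. Its brightest probe set had 736, 665, 707 and 644 in dark zone arrays 1 to 4, against 1229, 1157, 1209 and 1093 in light zone arrays 1 to 4. The groups were far apart: the lowest light zone array stood well above the highest dark zone array. The mean was 688 ± 41.3 in dark zone arrays and 1172 ± 60.9 in light zone arrays (SD, n = 4 each), a difference of -0.77 (SE 0.07, 95% interval -0.91 to -0.63, limma adjusted p = 2.0e-06).

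Plxnc1 has 6 probe sets, and they did not all show the same. The second brightest had 328, 315, 361 and 314 in dark zone arrays and 561, 564, 597 and 581 in light zone arrays. That is a difference of -0.81 (SE 0.07, limma adjusted p = 1.3e-06 over all probe sets), close to that of the brightest. The other 2 above the filter were also called lower, at -0.29 for the third brightest and -0.48 for the fourth. The call of the third was lost without light zone array 1 (limma adjusted p = 0.054) or light zone array 4 (0.057). The 2 probe sets below the filter, at 0.17 and -0.02, were not called, with all array intensities between 8.5 and 18.9. With all 6 averaged the difference was -0.37 (limma adjusted p = 4.7e-04).

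Plxnb1 and Plxnd1 overlapped between the zones. Plxnb1, known as the high-affinity plexin for semaphorin 4D, had intensities of 89.7, 84.4, 74.97 and 89.8 in dark zone arrays and of 74.0, 80.4, 80.6 and 86.4 in light zone arrays. The difference was 0.07, with a 95% interval of -0.09 to 0.24 (limma adjusted p = 0.45). A second, dim probe set gave 0.12 and was not called either. Plxnd1, known as the receptor of semaphorin 3E and also bound by semaphorin 4A, was just above the filter. It had 25.6, 30.8, 31.9 and 30.6 in dark zone arrays and 28.2, 33.3, 26.8 and 31.3 in light zone arrays. The difference was -0.01, with an interval of -0.20 to 0.18 (limma adjusted p = 0.95). In both genes the interval ended below 0.50, the estimate for Plxnb2.

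Of the semaphorins, Sema7a differed most. It encodes a lipid-anchored semaphorin that binds Plxnc1 and an integrin containing the chains of Itga1 and Itgb1. The brighter of its 2 probe sets had 536, 375, 454 and 522 in dark zone arrays 1 to 4 and 809, 753, 881 and 881 in light zone arrays 1 to 4. All dark zone arrays were lower, and dark zone array 2 was lowest. The mean was 472 ± 73.8 in dark zone arrays and 831 ± 61.8 in light zone arrays (SD, n = 4 each), a difference of -0.83 (SE 0.11, 95% interval -1.06 to -0.60, limma adjusted p = 6.0e-05). The other was below the filter, at 16.4 to 24.5 in dark zone arrays and 19.4 to 20.0 in light zone arrays, and differed by -0.03. Averaging both gave -0.43 (limma adjusted p = 7.9e-05).

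Sema4d encodes CD100, a transmembrane semaphorin of lymphocytes. The brightest of its 3 probe sets had 933, 981, 914 and 844 in dark zone arrays 1 to 4 and 1334, 1180, 1331 and 1264 in light zone arrays 1 to 4. The groups did not overlap. The mean was 918 ± 57.0 in dark zone arrays and 1277 ± 72.5 in light zone arrays (SD, n = 4 each), a difference of -0.48 (SE 0.07, 95% interval -0.62 to -0.33, limma adjusted p = 1.3e-04). Its other probe sets were near or below the filter, gave 0.19 and -0.16, and were not called. The average over all 3 was -0.15, and then the gene was not called (limma adjusted p = 0.068).

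Sema4b encodes another transmembrane semaphorin of the same class. The brighter of its 2 probe sets had 149, 129, 130 and 165 in dark zone arrays 1 to 4, against 191, 174, 196 and 190 in light zone arrays 1 to 4. The gap was narrow, since dark zone array 4 came close to light zone array 2. The mean was 143 ± 17.3 in dark zone arrays and 188 ± 9.31 in light zone arrays (SD, n = 4 each), a difference of -0.40 (SE 0.08, 95% interval -0.58 to -0.21, limma adjusted p = 0.0023). The dimmer probe set, just above the filter, gave 0.21 and was not called (limma adjusted p = 0.091 over all probe sets), so the probe sets of this gene differed in sign. Without light zone array 2 it was called higher, at 0.26 (limma adjusted p = 0.040). Averaged, they gave -0.09 and the gene was not called (limma adjusted p = 0.22).

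Sema4a encodes a class 4 semaphorin that binds plexins and, in mouse, TIM-2, the product of Timd2. Both of its probe sets were below the filter. The brighter had 18.3, 15.7, 17.0 and 19.4 in dark zone arrays and 18.6, 27.0, 17.2 and 21.5 in light zone arrays, so the groups overlapped, and the difference of -0.24 did not pass (limma adjusted p = 0.19 over all probe sets). The dimmer had 11.7, 12.6, 13.8 and 13.7 in dark zone arrays and 17.8, 21.3, 16.4 and 24.2 in light zone arrays. Here the groups did not overlap, and the difference was -0.61 (SE 0.11, limma adjusted p = 0.0012). Its identifier has the ending x_at, which marks a probe set whose probes can share sequence with other transcripts, so this value is uncertain as a measure of Sema4a.

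Efnb1 encodes ephrin B1. The brightest of its 3 probe sets had 470, 445, 412 and 488 in dark zone arrays 1 to 4 and 594, 587, 639 and 692 in light zone arrays 1 to 4. All 4 dark zone arrays were below the lowest light zone array. The mean was 454 ± 33.0 in dark zone arrays and 628 ± 48.6 in light zone arrays (SD, n = 4 each), a difference of -0.47 (SE 0.07, 95% interval -0.63 to -0.31, limma adjusted p = 3.2e-04). The next had 214, 218, 246 and 288 in dark zone arrays and 259, 272, 348 and 347 in light zone arrays. These overlapped, and the difference of -0.34 just missed the threshold (limma adjusted p = 0.053 over all probe sets). It passed without dark zone array 4 (-0.43, limma adjusted p = 0.017), without light zone array 1 (-0.42, 0.024) and without light zone array 2 (-0.40, 0.043). The third gave -0.19 with overlapping groups (limma adjusted p = 0.32). All 3 were above the filter and of the same sign, and their average of -0.33 was called (limma adjusted p = 0.0040).

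**Figure D2:**
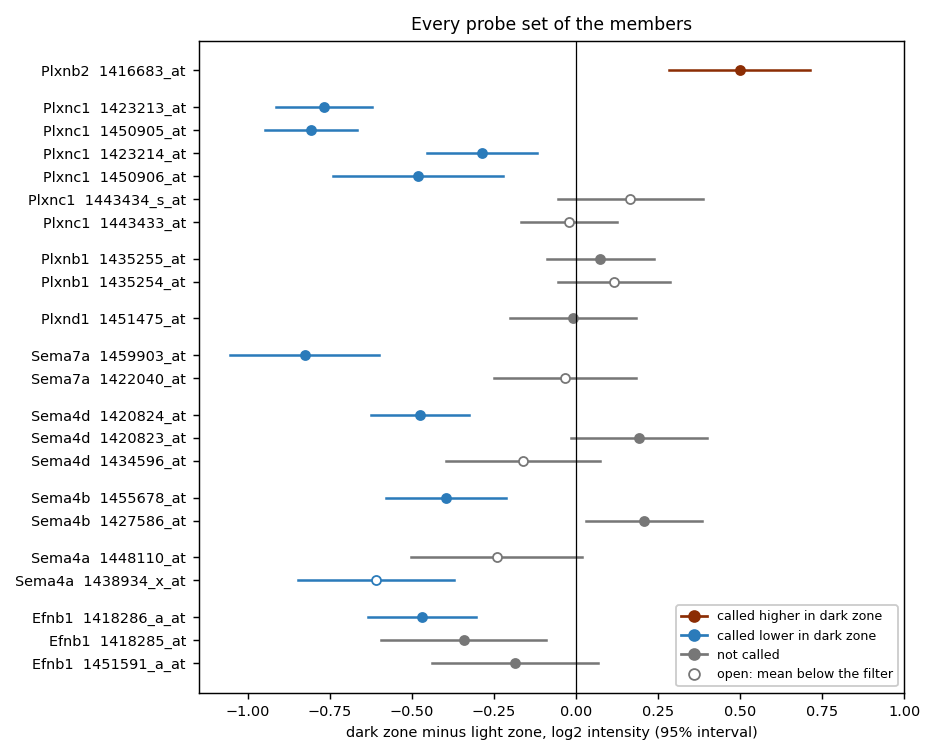
Dark zone minus light zone difference in log2 intensity (horizontal axis) of all 22 member probe sets, by gene, brightest first within a gene. Points are limma estimates with 95% intervals, brown where called higher, blue where called lower and grey where not called, and open where the mean is below the filter. The probe set of Plxnb2 is the 1 called higher, at 0.50, and the called probe sets of the other genes lie between -0.29 and -0.83.

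With no filter and p adjusted over all 45037 probe sets, 21.8% of probe sets were called, against 10 of the 22 of the members, 1 higher and 9 lower. Of the 15 member probe sets above the filter 9 were called, and of the 7 below it 1 was called, the x_at probe set of Sema4a. The 21.8% takes in bright and dim probe sets together, while most member probe sets were above the filter. Shares over all probe sets above and below the filter were not computed, so these counts have no share to be read against. In order of the gene differences, neighbouring 95% intervals overlapped for Sema7a (-0.83) and Plxnc1 (-0.77), and among Sema4d (-0.48), Efnb1 (-0.47) and Sema4b (-0.40). The intervals of Plxnc1, up to -0.626, and Sema4d, from -0.624, barely missed each other, while that of Efnb1, from -0.633, reached that of Plxnc1. There was a narrow gap between the interval of Sema4b, which ended at -0.21, and that of Plxnd1, which began at -0.20. Another lay between the interval of Plxnb1, which ended at 0.24, and that of Plxnb2, which began at 0.28. Differences between members were not tested.

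**Figure D3:**
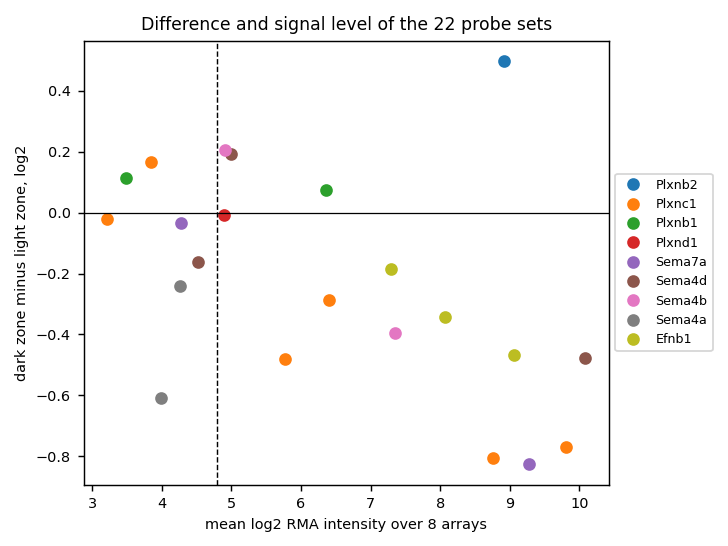
Dark zone minus light zone difference in log2 intensity (vertical axis) against the mean log2 intensity over the 8 arrays (horizontal axis) of the 22 member probe sets, coloured by gene. The dashed line is the filter. Apart from the x_at probe set of Sema4a (-0.61), the probe sets below the filter lie between -0.24 and 0.17.

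Receptors other than plexins that bind these semaphorins, or that couple to B-type plexins, were also compared. Cd72, an inhibitory B cell coreceptor bound by semaphorin 4D, had 646, 640, 579 and 579 in dark zone arrays 1 to 4 and 2169, 2128, 1923 and 1689 in light zone arrays 1 to 4. The difference was -1.69 (SE 0.08, limma adjusted p = 2.3e-08), larger in size than that of any member. Timd2, the mouse gene of the semaphorin 4A receptor TIM-2, had 68.0, 74.0, 80.7 and 72.9 in dark zone arrays and 229, 254, 245 and 214 in light zone arrays. It fell by 1.67 (SE 0.07, limma adjusted p = 9.5e-09), and a second probe set fell by 1.04. Neither gene's arrays overlapped. By their brightest probe sets, Sema4d and its lymphocyte receptor gene Cd72 were thus both lower in the dark zone, as were Sema7a and Plxnc1. Other receptor genes of these ligands did not fall. Plxnb1, for semaphorin 4D, was at 0.07, and Itgb1, for semaphorin 7A, was at 0.04, and neither was called. Plxnb2, whose product binds class 4 semaphorins, rose by 0.50.

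The remaining receptors of this kind did not pass. Itgb1, the integrin beta 1 chain bound by semaphorin 7A, was at 0.04 (limma adjusted p = 0.71), although a dimmer probe set of it was called higher at 0.32. Erbb2, a receptor kinase that couples to B-type plexins, was at 0.01. Itga1, Met and Mst1r were below the filter. This list therefore had 0 higher, 2 lower and 2 not called among 4 tested genes.

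Genes that act below plexins moved in both directions. Of 14 tested effectors 4 were called higher in dark zone cells and 3 lower, and 7 did not pass, with a median of -0.02. This was near the values over all tested genes, of which 43.9% were called, with a median of -0.01. Arhgef12, an exchange factor for RhoA that binds B-type plexins, was higher at 0.36 (SE 0.07, limma adjusted p = 9.5e-04), with 196 ± 9.70 in dark zone arrays and 152 ± 10.5 in light zone arrays (SD, n = 4 each). Its relative Arhgef11, which has the same role, was at -0.12 and did not pass (limma adjusted p = 0.24). Rras, a small GTPase that plexins switch off, was lower at -0.40 (SE 0.07, limma adjusted p = 5.3e-04), whereas the related Rras2 was higher at 0.43 (SE 0.06, limma adjusted p = 5.6e-05). A second probe set of Rras2 was called higher at 0.80 (limma adjusted p = 6.5e-05 over all probe sets), and the average was 0.62. The size of its rise thus depended on the probe set. Mical3, of a family of actin-oxidising enzymes, was lower at -0.29 (limma adjusted p = 0.011).

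The other calls in that list were close to the threshold. They were Rhoa at 0.23 (limma adjusted p = 0.031), Arhgap35 at 0.26 (0.042) and Rap1a at -0.16 (0.037). The second brightest probe set of Rhoa was called higher at 0.38 (limma adjusted p = 0.020 over all probe sets). Adjusted in that way, the brightest just missed the threshold (0.053), and the dimmest, at 0.06, was not called. Leaving out single arrays ended the gene call of Rhoa in 6 of 8 cases, with only dark zone array 4 and light zone array 1 dispensable. It ended that of Rap1a in 7, all but dark zone array 3, and that of Arhgap35 in 4: dark zone array 1 and light zone arrays 1, 2 and 4. The limma adjusted p was then between 0.052 and 0.093, and Arhgap35 without dark zone array 1 was at 0.16. Counting every alternative, the call was lost in 12 of 19 for Rap1a, 9 of 18 for Arhgap35 and 6 of 19 for Rhoa. Without dark zone array 1, light zone array 2 or light zone array 4, only 2 effectors were called higher.

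Other members of the ligand and receptor families showed little. None of the 3 further plexin genes tested (Plxna1 at 0.10, Plxnb3 at 0.08 and Plxna3 at -0.02) and none of the 4 tested semaphorin genes passed. Of those 16 semaphorin genes, 12 were below the filter, among them Sema4c, whose product binds plexin B2, and Sema3e, whose product binds plexin D1. The neuropilin genes Nrp1 and Nrp2, coreceptors for secreted semaphorins, were below it too. Without a filter Sema6d, named here after its values were seen, was called lower at -0.70 (limma adjusted p = 0.0082 over all probe sets). Its brightest probe set had 18.6, 23.0, 20.1 and 21.9 in dark zone arrays and 25.8, 42.8, 26.1 and 45.1 in light zone arrays, which did not overlap. Its other 3 probe sets were dimmer and were not called.

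On the ephrin side most Eph receptor genes were dim. Of the 13 with a probe set 9 were below the filter, and of the 4 tested Epha10 was higher in the dark zone at 0.33 (SE 0.08, limma adjusted p = 0.0042). Epha10 was itself dim, with 45.8 ± 3.57 in dark zone arrays and 36.5 ± 2.90 in light zone arrays (SD). With an offset of 50 its difference was 0.15 (limma adjusted p = 0.017). Ephb4, Ephb6 and Epha4, which can bind B-type ephrins, were below the filter. Of 3 tested ephrin genes, Efnb2 (0.17), Efna5 (-0.04) and Efna2 (-0.09), none passed. Among 5 tested genes for proteins that bind the ephrin B tail, Sdcbp (syntenin) was higher at 0.22 (limma adjusted p = 0.014) and the adaptor gene Nck2 was lower at -0.26 (limma adjusted p = 0.0087), but the call of Nck2 was lost when its probe sets were averaged (-0.03). Of the other probe sets of Sdcbp, the brighter was called higher at 0.33 and the dimmer was at -0.05 and not called.

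Ephrins and Sema4d can be cut from the cell surface by proteases. Adam17 was lower in the dark zone at -0.28 (SE 0.06, limma adjusted p = 0.0043), and a second probe set was called lower at -0.32. The third, dimmer but above the filter, went the other way at 0.05 and was not called, and the average of all 3 was -0.18 (limma adjusted p = 0.027). Adam10 was at 0.02 by its brightest probe set and did not pass. Of its dimmer probe sets 2, at 0.83 and 0.63, were called higher, so the probe sets of Adam10 do not give 1 answer. In all, the 9 partner lists held 80 genes, 79 had a probe set and 39 were tested, of which 6 rose, 7 fell and 26 did not pass. Their median was 0.01, and the shares over all tested genes were 19.1% higher and 24.8% lower.

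**Figure D4:**
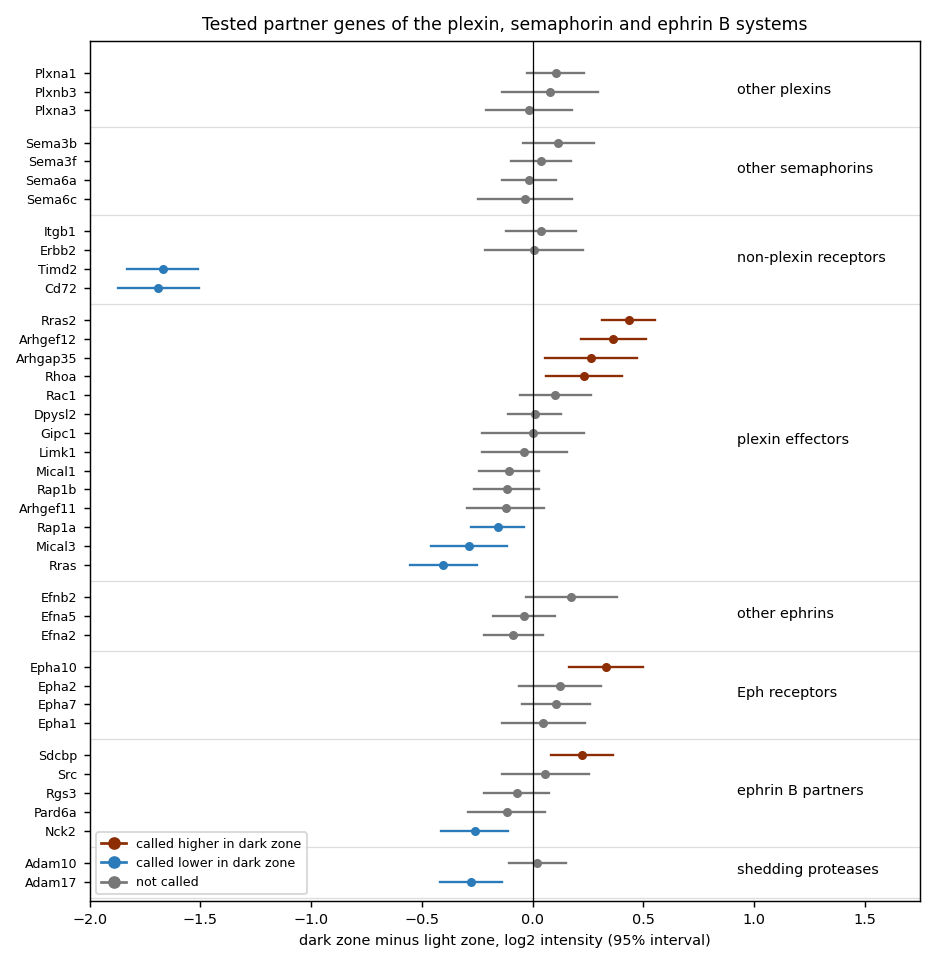
Dark zone minus light zone difference in log2 intensity (horizontal axis) of the 39 tested partner genes, in 8 lists. Points are limma estimates with 95% intervals, brown where called higher in the dark zone, blue where called lower and grey where not called. Cd72 (-1.69) and Timd2 (-1.67) lie far to the left of all others.

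Likeness of pattern was measured as Pearson's r of log2 values over the 8 arrays, against the other 10546 tested genes. For Plxnb2 the closest were Nav2 (r = 0.984, difference 0.28), Rcc2, which acts in mitosis (r = 0.982, difference 0.44), and Arid3a, a B cell transcription factor (r = 0.979, difference 0.37). For Sema7a they were Tob1, an antiproliferative gene (r = 0.997, difference -0.98), Lrpap1, a chaperone of lipoprotein receptors (r = 0.993, difference -0.22), and Emid1 (r = 0.992, difference -0.59). All 8 arrays fall into the 2 zones, so r mostly follows the zone: 349 genes had r above 0.9 with Plxnb2 and 805 with Sema7a.

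Markers of B cells were bright in both zones. The 4 B cell genes with a probe set (Ms4a1, Cd79a, Cd79b and Pax5) were not called, and their summed intensity was 15460 to 16077 in dark zone arrays and 15980 to 16728 in light zone arrays. The 6 germinal centre genes with a probe set were all above the filter, with sums of 14524 to 15250 in dark zone arrays and 11918 to 12520 in light zone arrays. Of these, Gcsam (1.48), Mybl1 (0.76) and S1pr2 (0.26) rose in dark zone arrays, Rgs13 (-0.21) and Fas (-0.23) fell, and Bcl6 (0.14) did not pass. Of 8 T cell genes 5 were below the filter, including Cd3d, Cd3g and Thy1, and none of the other 3 was called, with sums of 181 to 188 in dark zone arrays and 181 to 194 in light zone arrays. Without a filter Thy1 was called lower in the dark zone, at -0.32 (limma adjusted p = 0.022 over all probe sets). Its arrays overlapped, with means of 15.5 in dark zone arrays and 19.3 in light zone arrays, and the other dim T cell genes were not called. No dendritic cell gene was called among 3 tested of 5, with sums of 630 to 853 in dark zone arrays and 661 to 768 in light zone arrays.

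Some markers of other cells moved with the zones too. Of 9 myeloid genes 5 were below the filter, Lyz2 and Csf1r rose in dark zone arrays, as Plxnb2 did, and Cd68 fell, with sums of 331 to 1060 in dark zone arrays and 245 to 297 in light zone arrays. Lyz2 had 128, 461, 466 and 824 in dark zone arrays 1 to 4, against 43.0, 40.7, 37.7 and 89.1 in light zone arrays 1 to 4, with no overlap. Of 10 stromal and follicular dendritic cell genes 5 were below the filter and Cr2 and Fcer2a fell in dark zone arrays, as 5 members did. Both are genes that B cells express too. The sums were 1662 to 2012 in dark zone arrays and 4369 to 4717 in light zone arrays. Of 5 plasma cell genes 1 was higher (Jchain) and 2 were lower (Prdm1 and Irf4), with sums of 11722 to 12263 in dark zone arrays and 10751 to 12069 in light zone arrays. Prdm1 passed the filter through the light zone arrays. Its mean was 17.6 ± 2.48 in dark zone arrays, below the filter, and 45.4 ± 6.75 in light zone arrays (SD). The part of these other cells in the members' differences was not tested.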

How the data were processed

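RNA of 8 sorted samples, 4 per zone, was measured on Affymetrix mouse arrays. The deposited values are intensities on a linear scale made with RMA (background correction, quantile normalization and probe summary), per the submitters' processing notes. Its version is not given in the sources used here. Log2 was taken before every test, with no pseudocount. Quantile normalization hides changes in total RNA per cell and RMA compresses the folds of dim genes. The number of arrays limits the precision. No pair of arrays was identical, and array medians lay between 27.3 and 28.1.

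Of the probe sets 34945 carry 1 symbol, 932 several and 9160 none. The zones were compared by limma 3.58.1 under R 4.3.3, with lmFit and eBayes (two-sided tests, Benjamini-Hochberg adjustment), once on genes and once on all probe sets. The fit was tried on simulated data with independent noise and few changed genes. Far more genes were called in the real data, so that trial does not check the calls made here. The members and lists were chosen with earlier results of these data known. Named genes are all members, up to 4 called genes per partner list and direction, known partners of members, and the 3 genes most like the members with the largest rise and fall. Probe sets named beside them were chosen after their values were seen. Sequences are from RefSeq (GRCm38.p6), which had all 9 members. Alternatives varied the filter, probe set choice, scaling, variance model, weights, replicate block, offset and arrays. Figures used matplotlib 3.10.9.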

Additional observations from a re-analysis of the deposited data

Results flagged for a closer look

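No array stood apart in any of the 44 groups of 4 values that the member probe sets give. Among the 78 groups of the tested partner genes, 8 held an array far from its other 3, judged by the gap to its nearest neighbour as a share of the group's range, where chance gives about 1 in 20. These were dark zone array 1 in Plxna3 (0.88), Arhgap35 (0.91), Efnb2 (0.92) and Adam17 (0.84), dark zone array 4 in Rac1 (0.92), and light zone arrays 2, 4 and 1 in Plxna1 (0.84), Sema6c (0.85) and Efnb2 (0.93). In Arhgap35, dark zone array 1 had an intensity of 124 against 91.7 to 94.3 in the other dark zone arrays and 79.5 to 89.3 in light zone arrays. In Adam17 it had 1042 against 918 to 937 in the other dark zone arrays and 1121 to 1251 in light zone arrays.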

How the results depend on the processing

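The members' calls held under nearly all 19 alternatives. The count of members lower in the dark zone was 5 throughout, except 3 when the probe sets of a gene were averaged, which ended the calls of Sema4b and Sema4d, and the count higher was always 1. Plxnb2 lay between 0.39 and 0.55, Plxnc1 between -0.81 and -0.37, Sema7a between -0.89 and -0.43 and Efnb1 between -0.50 and -0.33. Plxnd1 changed sign without being called: it was 0.048 with array weights and between -0.060 and 0.062 when 1 array was left out. Plxnb1 and Plxnd1 were called under no alternative in which they were tested. Sema4a was tested only with no filter (limma adjusted p = 0.16) or a filter at the 25th percentile (0.15), at -0.24. Of all genes tested, 2015 were higher and 2614 lower, against 1731 and 2835 with arrays centred on their medians. Same-numbered arrays deviated together only in part (correlations of 0.06 to 0.24, and 7 of 8 arrays correlated best with their own number), so the numbers were not taken as pairs. With the replicate block, 2088 genes were higher and 2699 lower, and of member probe sets 11 were called in place of 10, the addition being the second brightest of Efnb1 (-0.34, limma adjusted p = 0.0046). Beyond single arrays, the call of Rap1a was lost with no filter, a filter at the 25th percentile, the probe set of largest spread, repeated quantile normalization or the replicate block (limma adjusted p of 0.054 to 0.061). That of Arhgap35 was lost with no filter, median centring, array weights, the replicate block or an offset of 50 (0.050 to 0.065). The signal of dim probe sets near the floor limits what can be said of Sema4a and Plxnd1.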
